A study of Mus musculus with 2 samples.

Results

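Lgr5, Ascl2, Olfm4, Axin2, Smoc2, Rnf43, Znrf3, Slc12a2, Gkn3 and Cdca7 were followed in sorted epithelial cells of the mouse small intestine by single-cell RNA-Seq. These 10 genes are commonly used to mark the stem cells of the intestinal crypt, and they were taken by symbol from the 32285 genes measured. All 10 were detected in both libraries. The WT library came from Neurog3Cre; Rosa26tdtomato mice, and the library labelled NFKO from Neurog3Cre-FoxO1 f/f; Rosa26tdtomato mice. In both, cells with a history of Neurog3 expression become red through tdTomato, and the Cre should remove FoxO1 in those same cells of the second group only. Each library pooled the small intestine of 4 to 5 mice aged 4 to 6 weeks, with the attached pancreas taken away, and Tomato-positive epithelial cells were sorted. Cells enter such a sort by their reporter, so the members were measured in this sorted population and not in the crypt as a whole. Each group had 1 library, so no test was possible and every interval covers counting error at 95% only.

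Wnt ligands bind receptors on crypt base cells and stabilise beta-catenin, which joins TCF factors in the nucleus to switch on target genes. R-spondins strengthen the signal through Lgr5-type receptors, which keep the ubiquitin ligases Rnf43 and Znrf3 from clearing Wnt receptors off the surface. Stem cells between Paneth cells depend on this signal, and their daughters lose it as they move up the crypt, while Paneth cells continue to receive it.

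The label of the second library was checked first. Over all kept cells Foxo1, the targeted gene, stood at 11.6 CPM in WT, where CPM counts the unique molecular identifiers (UMIs) of a gene per 1000000 UMIs. It was at 12.4 CPM in the library labelled NFKO, and the ratio of NFKO to WT was 1.07 (0.987 to 1.17). A 3′ count can come from outside the deleted part of a gene, so this value does not check the label. The insulin gene Ins2 had 0 UMIs in WT and 25 in NFKO, which is 0.225 CPM. In the cell groups named below, Olfm4-high cells held 8 of these, Paneth-like cells 5 and enteroendocrine-like cells 2. So few UMIs do not settle the label either. After filtering, 3003 WT cells with 78722460 UMIs and 5292 NFKO cells with 111249836 UMIs were kept. The libraries also differed in sex, since 2424 WT cells carried only Y-linked transcripts and 6 only Xist, against 357 and 4359 in the library labelled NFKO. Of the kept cells, 4 barcodes were common to both libraries.

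Cells were clustered without the 10 members, so that the clusters do not rest on them. Cluster 4, with the highest mean Olfm4 level, is called Olfm4-high here. It held 316 WT cells, 10.5% (9.45 to 11.7) of the library, and 229 NFKO cells, 4.33% (3.80 to 4.91). Of 13 other crypt base stem cell markers only Igfbp4, Tnfrsf19, Cdk6, Clca3b and Aqp4 were at least 2-fold higher there than in the remaining cells of both libraries. All 13 cycling markers marked this cluster too, so it was not given a stem cell name. The remaining groups were dividing cells (cluster 9), secretory and endocrine progenitor-like cells, and Paneth-like, goblet-like, enteroendocrine-like, enterocyte-like and tuft-like cells. By group the Foxo1 ratio was below 1 in tuft-like cells at 0.298 (0.146 to 0.606), in dividing cells at 0.505 (0.343 to 0.753), in secretory progenitor-like cells at 0.528 (0.3198 to 0.890) and in enteroendocrine-like cells at 0.830 (0.711 to 0.971). It was above 1 in Olfm4-high cells, at 1.41 (1.14 to 1.73), and the intervals of the other 4 groups held 1.

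The members did not share a single pattern over these groups. In both libraries Olfm4, Rnf43, Slc12a2 and Cdca7 were highest in Olfm4-high cells, Olfm4 by the choice of the cluster. Lgr5, Ascl2 and Smoc2 were highest in tuft-like cells in both libraries, though with every cell given the same weight this held for Ascl2 alone, 1 member. Axin2, Znrf3 and Gkn3 led in different groups in the 2 libraries. Against all remaining cells, 9 of the 10 members were at least 2-fold higher in Olfm4-high cells of both libraries, Olfm4 again by choice, where 9.92% of 14596 genes with at least 50 UMIs were. No member was at least 2-fold lower, as 14.9% of genes were. Znrf3 was the member that did not reach 2-fold, with ratios of 1.76 (1.48 to 2.09) in WT and 1.12 (0.871 to 1.42) in NFKO.

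**Figure D1:**
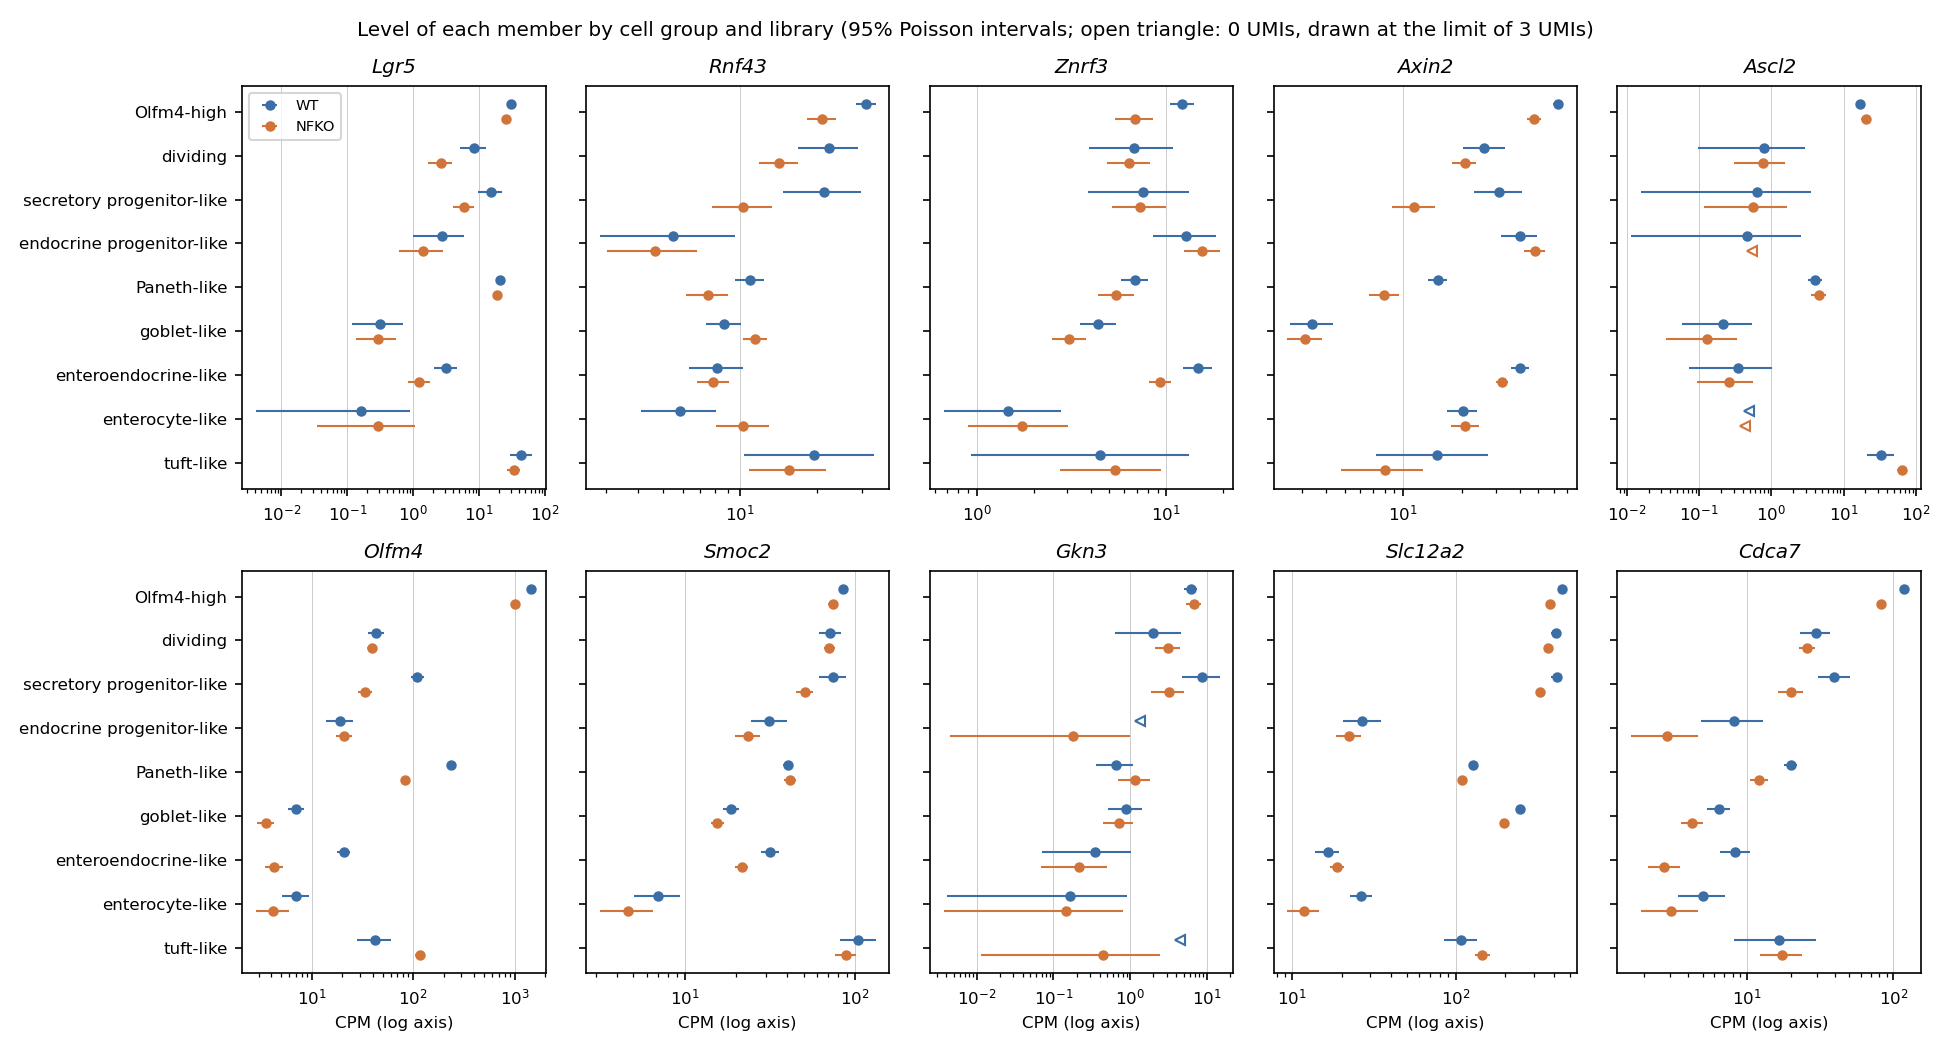
Level of each member in CPM (log axis) in 9 cell groups, WT in blue and NFKO in orange, with 95% Poisson intervals; an open triangle marks a group with 0 UMIs, drawn at the limit of 3 UMIs. Lgr5, Ascl2 and Smoc2 reach their highest points in tuft-like cells, and Slc12a2 stays high in dividing and goblet-like cells.

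Lgr5 (ENSMUSG00000020140), the R-spondin receptor on chromosome 10 from 115450311 to 115587780 on the minus strand of GRCm38, stood at 30.05 CPM (27.4 to 32.9) in Olfm4-high cells of WT and at 25.3 (22.4 to 28.4) in NFKO. In tuft-like cells it was at 43.5 (29.1 to 62.4) and 33.0 (25.9 to 41.4), which overlapped the Olfm4-high values within each library. Paneth-like cells came next, with 20.5 (18.6 to 22.5) in WT and 18.5 (16.4 to 20.7) in NFKO. Secretory progenitor-like cells held 15.04 (9.64 to 22.4) and 5.80 (3.94 to 8.24), and dividing cells 8.35 (5.17 to 12.8) and 2.59 (1.66 to 3.86). All of these lay above the level of goblet-like cells, which should lack Lgr5 and held 0.317 and 0.291 CPM. The intervals of enterocyte-like and goblet-like cells overlapped at the bottom of the order in both libraries.

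Within the Paneth-like cells, Lgr5 in CPM differed between 2 clusters. Cluster 10, rich in the defensin genes of mature Paneth cells, held 18.6 CPM in WT and 14.9 in NFKO. Cluster 16, which expressed Lyz1 but was led by genes such as Defb1, Retnlb and Nppc, held 28.9 and 32.5, close to the level of Olfm4-high cells. Smoc2 was also higher in cluster 16, at 69.0 and 79.4 CPM, than in cluster 10, at 34.2 and 32.0. Olfm4 ran the other way, with 282 and 104 CPM in cluster 10 against 27.9 and 4.46 in cluster 16. CPM is a share of all UMIs, and defensins take a large part of them in Paneth-like cells. Defa24 alone stood at 254214 CPM in WT and 234818 in NFKO. The median depth was 88966 UMIs in cluster 10 and 31672 in cluster 16. The part of this in the differences between the clusters was not tested.

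Rnf43 (ENSMUSG00000034177, chromosome 11, 87662722 to 87735539, plus strand) encodes a ubiquitin ligase that takes Wnt receptors off the surface, and is a target of the pathway that it restrains. It was at 31.1 CPM (28.4 to 34.0) in Olfm4-high cells of WT and 20.9 (18.4 to 23.8) in NFKO. Each of the 8 pairs of neighbours in its order over the groups had overlapping intervals in both libraries. From the highest to the lowest group it differed by 5.69-fold in WT and 4.52-fold in NFKO. Rnf43 in goblet-like cells was still at 8.65 CPM in WT and 11.5 in NFKO. As for Olfm4 below, a non-coding gene, 1110028F11Rik, lies within its span on the same strand.

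Znrf3 (ENSMUSG00000041961, chromosome 11, 5276324 to 5444847, minus strand), the paralogous ligase, was not centred on Olfm4-high cells. It stood there at 12.1 CPM (10.5 to 13.9) in WT and 6.84 (5.39 to 8.54) in NFKO. Endocrine progenitor-like cells held 12.7 (8.47 to 18.4) and 15.5 (12.4 to 19.1), and enteroendocrine-like cells 14.7 (12.2 to 17.5) and 9.27 (8.08 to 10.6). In NFKO the endocrine progenitor-like interval lay above that of the Olfm4-high cells, while in WT they overlapped.

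Axin2 (ENSMUSG00000000142, chromosome 11, 108920349 to 108950783, plus strand), a scaffold of the complex that degrades beta-catenin and a feedback target of it, stood at 63.2 CPM (59.4 to 67.2) in Olfm4-high cells of WT and 47.5 (43.6 to 51.7) in NFKO. Endocrine progenitor-like cells followed in WT with 40.1 (32.1 to 49.4) and led in NFKO with 47.8 (42.2 to 53.8), where they overlapped the Olfm4-high cells. Single enteroendocrine-like clusters went higher still. Cluster 19, led by the hormone genes Ppy and Pyy, held 112 CPM in WT and 71.0 in NFKO from 30 and 87 cells. Cluster 18, with Nts among its leading genes, held 94.99 and 78.0, and cluster 20 held 95.4 and 67.4, though in WT the intervals of clusters 18 and 20 overlapped that of the Olfm4-high cells. Lgr5 had 0 UMIs in clusters 18 and 19 of both libraries, so a high Axin2 level came without detected Lgr5 there. The Axin2 levels of Paneth-like cells, at 15.1 and 7.995 CPM, were below those of the Olfm4-high cells in both libraries. The same limit of CPM in defensin-rich cells holds here.

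**Figure D2:**
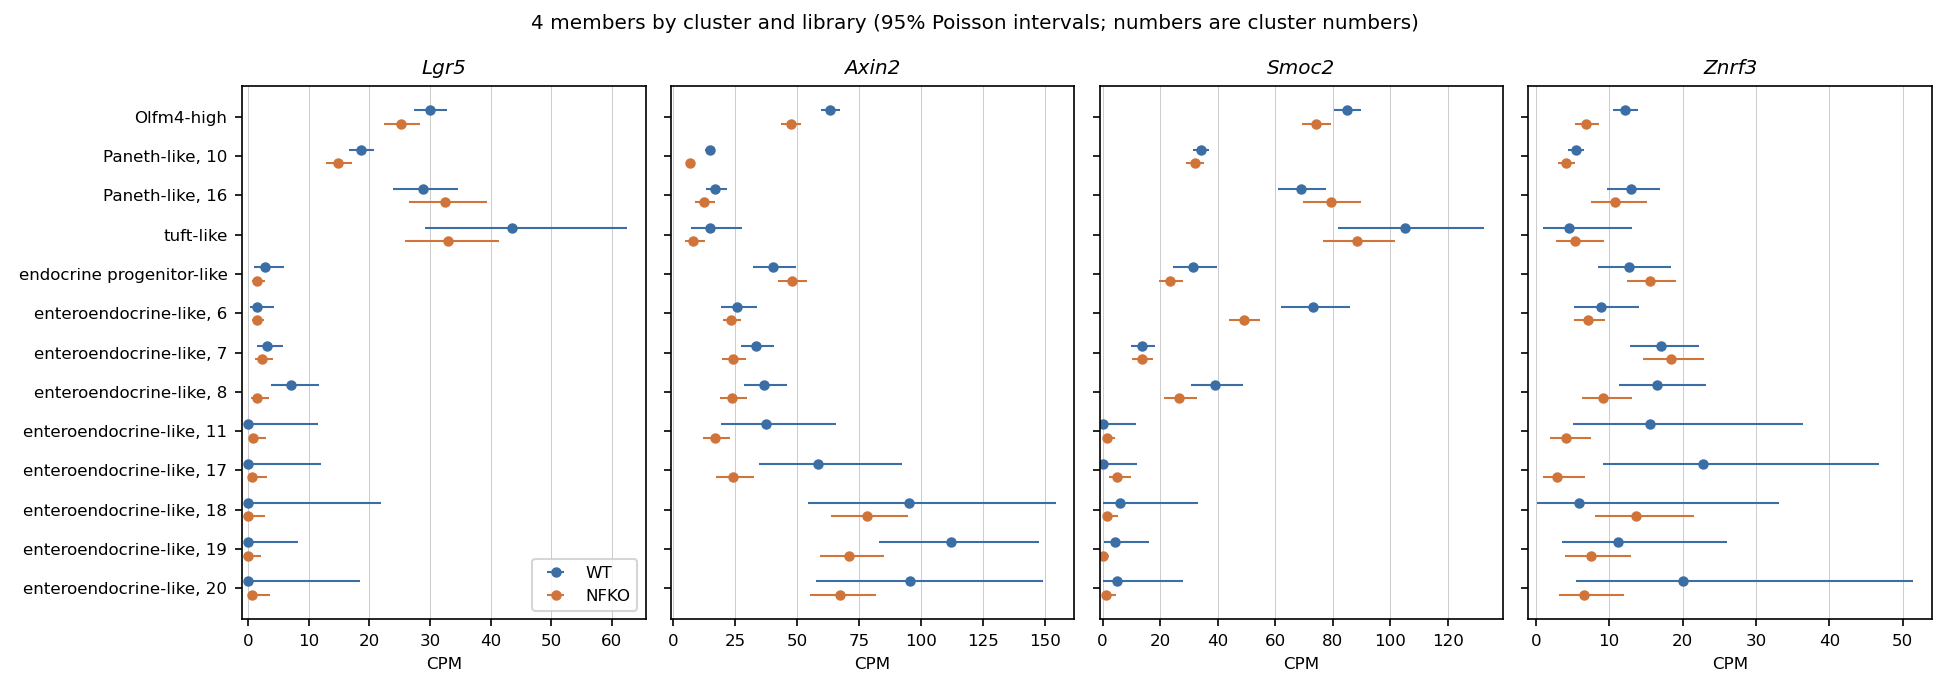
Lgr5, Axin2, Smoc2 and Znrf3 in CPM by cluster, WT in blue and NFKO in orange, with 95% Poisson intervals; numbers are cluster numbers. Axin2 is highest in enteroendocrine-like clusters 18 to 20, where Lgr5 is at or near 0, and Lgr5 is higher in Paneth-like cluster 16 than in cluster 10.

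Ascl2 (ENSMUSG00000009248, chromosome 7, 142966829 to 142969264, minus strand), a basic helix-loop-helix transcription factor of crypt base stem cells, was concentrated in few groups. It was at 17.1 CPM (15.1 to 19.2) in Olfm4-high cells of WT and 20.2 (17.6 to 22.9) in NFKO. Tuft-like cells were above them in both libraries, at 33.0 (20.7 to 49.9) and 64.3 (54.2 to 75.6). Paneth-like cells followed at 4.01 and 4.48 CPM, and the other 6 groups held at most 7 UMIs each per library. Enterocyte-like cells held 0 UMIs in both libraries, which allows up to 0.487 CPM in WT and 0.435 in NFKO.

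Olfm4 (ENSMUSG00000022026, chromosome 14, 79984081 to 80023139, plus strand), a secreted glycoprotein, was at 1460 CPM (1442 to 1479) in Olfm4-high cells of WT and 1006 (987 to 1024) in NFKO. Cells of that group varied widely, from 0 to 9154 CPM with a median of 1256 in WT, and from 0 to 12326 with a median of 341 in NFKO. In goblet-like cells Olfm4 was at 7.02 and 3.53 CPM. The annotation places the non-coding gene Gm6999 within the span of Olfm4 on its own strand, so reads shared by both could have been dropped in counting.

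Smoc2 (ENSMUSG00000023886, chromosome 17, 14279506 to 14404790, plus strand), a secreted matricellular protein, was spread over the crypt groups. It was at 85.0 CPM (80.6 to 89.7) and 74.3 (69.4 to 79.5) in Olfm4-high cells, and dividing cells held 71.9 (61.8 to 83.2) and 70.9 (65.6 to 76.5). Tuft-like cells stood at 105 (81.8 to 133) and 88.3 (76.5 to 102), which overlapped the Olfm4-high cells in both libraries. Enteroendocrine-like cluster 6, led by the hormone gene Gip, held 73.3 CPM in WT and 49.1 in NFKO, and goblet-like cells 18.8 and 15.6. Goblet-like cells, which held almost no Lgr5, thus still held Smoc2.

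Gkn3 (ENSMUSG00000030048, chromosome 6, 87383256 to 87388935, minus strand), a gastrokine family gene, rested on few counts, 323 UMIs over all kept cells. It was at 6.18 CPM (5.03 to 7.53) in Olfm4-high cells of WT and 6.75 (5.32 to 8.44) in NFKO. The secretory progenitor-like cells of WT were at 8.78 (4.80 to 14.7), but 3 cells held 78.6% of those UMIs.

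Slc12a2 (ENSMUSG00000024597, chromosome 18, 57878678 to 57946821, plus strand), the sodium-potassium-chloride cotransporter of secreting epithelia, was spread over several groups. It was at 446 CPM (435 to 456) there in WT and 377 (366 to 389) in NFKO. Dividing cells held 409 (384 to 435) and 368 (355.5 to 380), and secretory progenitor-like cells 417 (386 to 450) and 327 (311 to 342). Among mature cells, goblet-like cells held 248 and 197 CPM, whereas enteroendocrine-like cells held 16.4 and 18.8. Goblet-like values came from different clusters in the 2 libraries, mostly cluster 2 in WT and clusters 0 and 1 in NFKO.

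Cdca7 (ENSMUSG00000055612, chromosome 2, 72476159 to 72486893, plus strand), a MYC-responsive chromatin protein gene, was at 119 CPM (113 to 124) in Olfm4-high cells of WT and 82.6 (77.4 to 88.1) in NFKO. These values lay above the next group in each library, secretory progenitor-like cells at 39.5 in WT and dividing cells at 25.8 in NFKO. Dividing cells, which shared the cycling markers, thus had less Cdca7 than Olfm4-high cells in both libraries. They also had little Lgr5, at 8.35 and 2.59 CPM, and little Ascl2, at 0.795 and 0.756.

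Of the TCF-type core motif CTTTGA, searched on both strands from 250 bases before to 50 after the start in RefSeq's GRCm38.p6 promoters, no copy was present in the 7 windows of Ascl2, Axin2, Cdca7, Gkn3, Olfm4 and Rnf43. This motif was present in 16.003% of all 32851 windows. The related core CTTTGT was present in 1 of the 7 windows, that of Gkn3, and in 18.7% of all windows. With only 7 windows these counts cannot set the members apart from all windows. Lgr5, Smoc2, Znrf3 and Slc12a2 were not in the member count.

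Across the 9 cell groups the genes whose log2 levels were most like those of Lgr5, by the smaller Pearson r of the 2 libraries among 8283 genes, were Ascl2, Olfm4, Smoc2, Cdca7 and Sox9. The values of r were 0.834 and 0.908 for Ascl2 and 0.755 and 0.756 for Sox9, a crypt transcription factor that is not a member. For Axin2 the same measure with Lgr5 was 0.360 in WT and -0.0300 in NFKO, and for Znrf3 it was 0.351 and 0.190. The 9 points of each library share its depth and free RNA, and these values are a description.

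The wider pathway was described with a list of 56 Wnt genes that excludes the members. Of 47 with at least 50 UMIs, 7 were at least 2-fold higher in Olfm4-high than in the remaining cells of both libraries and 3 were at least 2-fold lower, where 9.92% and 14.9% of all genes were. The median log2 ratio of the list was 0.35 in WT and -0.10 in NFKO, beside 0.25 and -0.07 over all genes. Among 11 known targets 4 were higher, namely Tnfrsf19, Ccnd1, Sp5 and Myc, and 1 was lower, Prox1, against the same 9.92% and 14.9% of genes. Tnfrsf19 differed by 6.09-fold in WT and 11.2-fold in NFKO, Ccnd1, a cyclin of the early cell cycle, by 6.04 and 5.97, and Sp5, a transcription factor, by 6.52 and 5.18. The Frizzled receptors Fzd2 and Fzd5 and the nuclear factor Tcf7 completed the higher genes. Wnt3, a ligand made by Paneth cells, had ratios of 0.303 and 0.428, Fzd3 of 0.241 and 0.229, and Prox1, a factor of endocrine cells, of 0.258 and 0.193.

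Within Olfm4-high cells, 8 of the 10 members were lower in the library labelled NFKO with intervals below 1, where 23.9% of 10999 genes had such intervals. Their ratios of NFKO to WT ran from 0.564 for Znrf3 to 0.874 for Smoc2. Olfm4 was at 0.689 (0.673 to 0.704), Rnf43 at 0.673 (0.574 to 0.788), Cdca7 at 0.696 (0.643 to 0.753), Axin2 at 0.751 (0.675 to 0.835), Slc12a2 at 0.846 (0.814 to 0.879) and Lgr5 at 0.842 (0.725 to 0.977). Ascl2, at 1.18 (0.986 to 1.41), and Gkn3, at 1.09 (0.798 to 1.49), had intervals that held 1. The median log2 ratio of the 10 was -0.33, beside -0.03 over all genes.

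With all cells of the cluster only Znrf3 passed 1.5-fold, at 0.564 (0.427 to 0.738), 1 member of 10 where 11.1% of genes passed it in either direction. The sizes depended on the cells counted. In male-typed cells Lgr5 was at 0.472 (0.299 to 0.712), Rnf43 at 0.509 (0.334 to 0.745), Cdca7 at 0.524 (0.428 to 0.635) and Olfm4 at 0.561 (0.531 to 0.591). The share of all genes past 1.5-fold was not counted in male-typed cells, so these 4 ratios have no background beside them. With every cell given the same weight Znrf3 was at 0.691. Cycling transcripts were lower over all Olfm4-high cells, where Mki67 had a ratio of 0.657 and Top2a of 0.782. The median mitochondrial share was 7.37% in WT and 4.86% in NFKO, and the median depth was 46856 and 47455 UMIs. Markers of other cell types and stress also differed in Olfm4-high cells. The heat shock gene Hspa1a was at 236 CPM in WT and 10.03 in NFKO, a ratio of 0.0424 (0.0349 to 0.0512). Chga, of enteroendocrine cells, had a ratio of 0.292 (0.267 to 0.318), Fabp1, of enterocytes, of 11.03 (9.36 to 13.1) and Dclk1, of tuft cells, of 5.68 (3.78 to 8.79). The part of cycling, stress, mitochondrial share, other cell types and sex in the member ratios was not tested directly. Among Olfm4-high cells with no Mki67 or Top2a UMI at 2000 UMIs per cell, the same number of members, 8, had intervals below 1, where 20.2% of genes did. With a mitochondrial limit of 10% the number was 6, where 20.5% of genes did. Among male-typed cells it was 8, from 297 WT and 31 NFKO cells, where 10.3% of genes did.

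**Figure D3:**
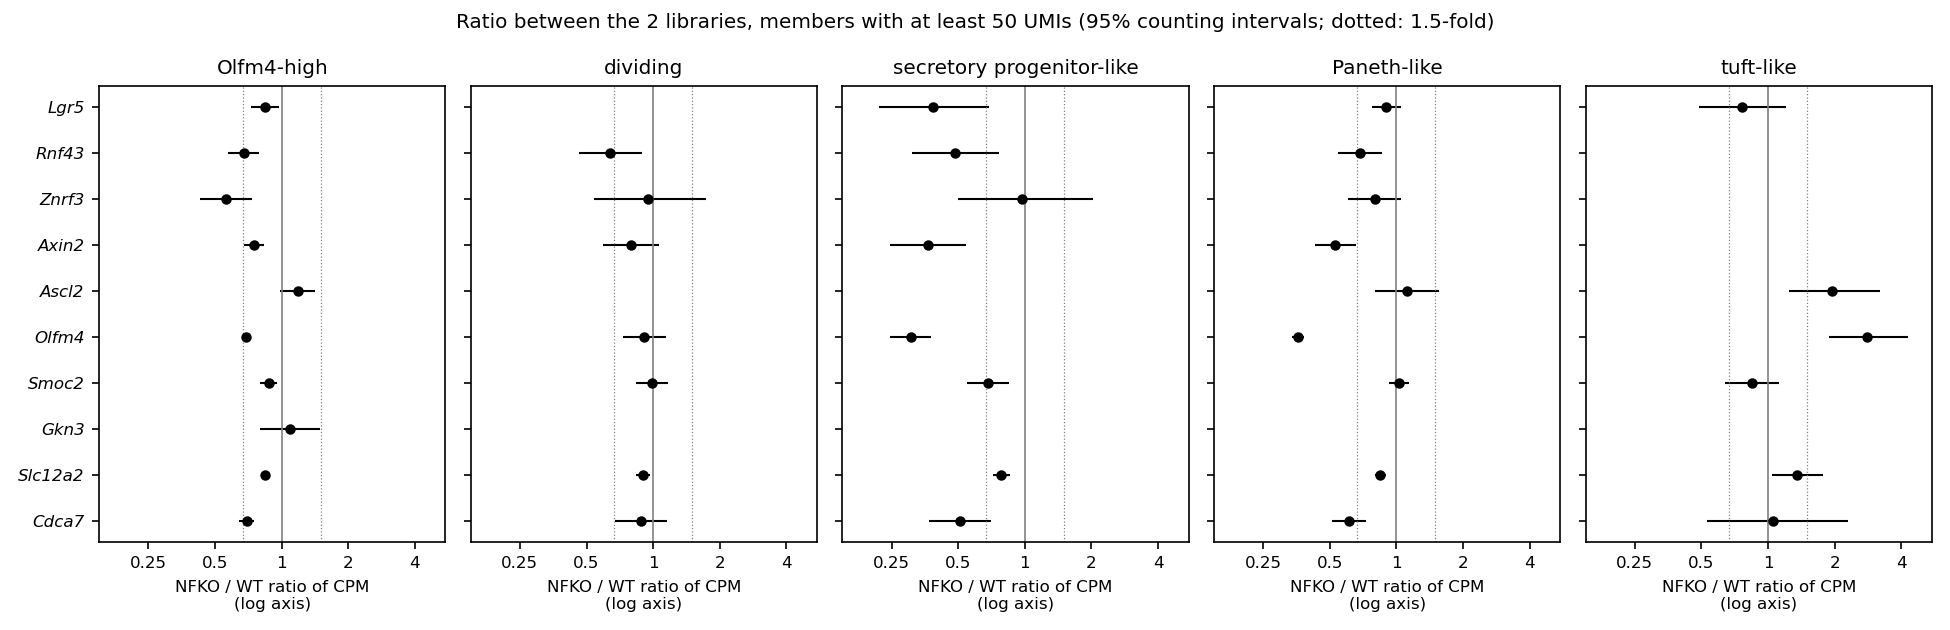
Ratio of the library labelled NFKO to WT for members with at least 50 UMIs in each of 5 cell groups (log axis), with 95% counting intervals and dotted lines at 1.5-fold. In Olfm4-high cells the points lie between 0.564 and 1.18, while in secretory progenitor-like cells 5 of 8 lie below the lower line.

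Secretory progenitor-like cells, which express the Notch ligand gene Dll1, showed more members past 1.5-fold. There 5 of 8 members with at least 50 UMIs passed it, all lower in NFKO, where 14.6% of genes passed in either direction. Olfm4 had a ratio of 0.305 (0.247 to 0.378), Axin2 of 0.364 (0.247 to 0.540), Lgr5 of 0.386 (0.219 to 0.687), Rnf43 of 0.483 (0.309 to 0.764) and Cdca7 of 0.507 (0.368 to 0.704). Few cells carried part of this, since 3 of 74 WT cells held 61.4% of the Olfm4 UMIs and 62.5% of the Lgr5 UMIs. Without the 3 cells with most UMIs of each gene in each library, Olfm4 was at 0.498 (0.367 to 0.681), Axin2 at 0.458 (0.294 to 0.720), Rnf43 at 0.542 (0.323 to 0.9296) and Cdca7 at 0.550 (0.386 to 0.794). Lgr5 was then at 0.504 (0.210 to 1.30), an interval that held 1. The group held 74 WT and 212 NFKO cells.

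In dividing cells 1 of 7 members passed 1.5-fold, Rnf43 at 0.636 (0.462 to 0.886), where 13.8% of genes did. Without its 3 top cells in each library this ratio was 0.705 (0.495 to 1.02). In endocrine progenitor-like cells 0 of 5 did, where 11.8% of genes did. In Paneth-like cells 3 of 9 members were lower past 1.5-fold, Olfm4 at 0.359 (0.337 to 0.381), Axin2 at 0.530 (0.427 to 0.654) and Cdca7 at 0.611 (0.511 to 0.727), where 16.1% of genes passed. Lgr5 and Smoc2 in Paneth-like cells had ratios of 0.900 (0.772 to 1.05) and 1.02 (0.921 to 1.13), so the members did not move together there. Olfm4 had ratios of 0.370 and 0.160 in clusters 10 and 16 taken alone.

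Among the mature groups, goblet-like cells had 2 of 7 members past 1.5-fold, Olfm4 at 0.503 and Cdca7 at 0.659, where 14.0% of genes passed. Their Olfm4 level of 7.02 and 3.53 CPM was in the range of enterocyte-like cells, 6.97 and 4.205. Over all kept cells Lgr5, Olfm4 and Cdca7 were lower in NFKO past 1.5-fold, where 4.44% of genes were. Free RNA cannot be told apart from a change within these mature groups or the Paneth-like and secretory progenitor-like cells. Enteroendocrine-like cells had 4 of 8 members past 1.5-fold, Lgr5, Olfm4, Znrf3 and Cdca7, all lower, where 13.8% of genes passed. The libraries drew on different clusters there, since cluster 7 gave 236 of 710 WT but 260 of 1523 NFKO cells, cluster 11 gave 34 and 264, and cluster 8, with the most Olfm4 in WT, gave 169 and 256. Of their WT Olfm4 UMIs 3 cells held 63.7%, and without the 3 top cells of each library the ratio of Olfm4 moved from 0.206 to 0.537 (0.387 to 0.747). In enterocyte-like cells 5 of 6 members passed, Rnf43 higher at 1.76 (1.17 to 2.71) and Olfm4, Smoc2, Slc12a2 and Cdca7 lower, where 21.1% of genes passed. Slc12a2 was at 26.4 CPM in WT and 11.7 in NFKO in these cells. Fabp1 also differed there, at 612 CPM in WT and 5229 in NFKO. The median depth was 13445 and 8639.5 UMIs, and the median mitochondrial share 12.3% and 8.35%. The part of these differences in the member ratios was not tested.

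In tuft-like cells 2 of 6 members passed 1.5-fold, Ascl2 and Olfm4, both higher, which is near the 34.7% of genes that passed in either direction. Ascl2 had a ratio of 1.95 (1.24 to 3.21), from 22 UMIs in WT and 144 in NFKO. Olfm4 had a ratio of 2.79 (1.89 to 4.29), but 3 NFKO cells held 84.4% of its UMIs, and without the 3 top cells of each library it was 1.02 (0.527 to 2.13). Ascl2 without its top cells was at 2.31 (1.34 to 4.25). WT tuft-like cells were shallow, with a median of 6208 UMIs and 12.4% mitochondrial UMIs, against 16720 and 4.94% in NFKO.

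Co-detection was counted after each cell had been thinned to a fixed depth, so that deep cells did not score more members for their depth alone. At 2000 UMIs per cell, 60.1% (54.5 to 65.6) of WT and 46.3% (39.7 to 53.0) of NFKO Olfm4-high cells held at least 2 members. In goblet-like cells the shares were 5.35% and 2.43%, and the median depths before thinning were 24162 and 21936 UMIs. Lgr5 alone was detected in 7.59% (4.93 to 11.1) and 4.37% (2.11 to 7.88) of Olfm4-high cells at that depth. At this depth most Lgr5-expressing cells would be missed, so pairs were read at 10000 UMIs, a depth chosen after the data were seen, which kept 309 and 212 Olfm4-high cells.

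At 10000 UMIs the median Olfm4-high cell held 4 members in WT and 3 in NFKO. At least 4 members were found in 59.2% (53.5 to 64.8) of WT and 45.3% (38.5 to 52.2) of NFKO cells, though cells of 1 library are not replicates. The corresponding shares were 19.8% and 12.6% in dividing cells, 24.6% and 10.1% in secretory progenitor-like cells and 18.4% and 10.4% in Paneth-like cells. In Paneth-like cells defensin UMIs take up part of the 10000. Goblet-like cells held at least 4 members in 1.42% and 0.609%. Lgr5 was detected in 21.7% (17.2 to 26.7) of WT and 19.3% (14.2 to 25.3) of NFKO Olfm4-high cells. The shares were 19.6% and 16.3% in Paneth-like cells and 23.8% and 27.3% in tuft-like cells. The intervals of these groups overlapped within each library, so Lgr5 detection did not set Olfm4-high cells apart from them. In goblet-like cells Lgr5 was detected in 0 of 703 and 0 of 985. These zeros limit the share of goblet-like cells with an Lgr5 UMI at this depth to 0.427% and 0.305%. Without thinning 6 of 845 WT (0.710%) and 9 of 1558 NFKO (0.578%) goblet-like cells had one. The unthinned shares were 54.3% and 44.3% in Paneth-like cells, above the 38.3% and 30.1% of Olfm4-high cells. Median depths there were 52909 and 37431 UMIs in Paneth-like and 46856 and 47455 in Olfm4-high cells. Among cells kept at 10000 UMIs, the median depths before thinning were 47494 and 51783 in Olfm4-high and 25873 and 28977 in goblet-like cells.

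**Figure D4:**
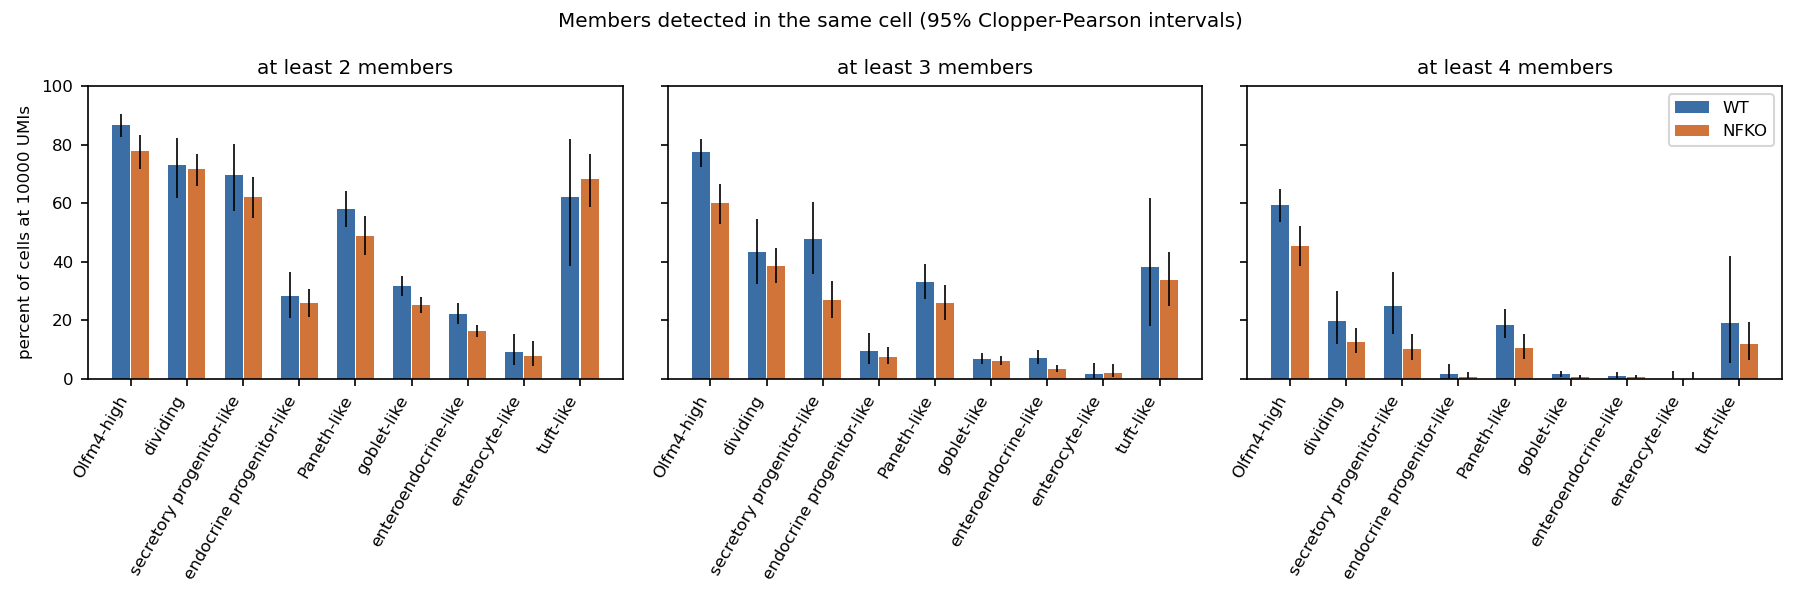
Percent of cells in each of 9 groups with at least 2, 3 or 4 of the 10 members at 10000 UMIs per cell, WT in blue and NFKO in orange, with 95% Clopper-Pearson intervals. At least 4 members occur in 59.2% of WT and 45.3% of NFKO Olfm4-high cells and in at most 24.6% of any other group.

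Pairs of members in single Olfm4-high cells were compared with the product of their shares. At 10000 UMIs, of the 45 pairs, 45 were found together above that product in WT and 39 in NFKO. At 5000 UMIs 43 and 38 were above it, and at 2000 UMIs 33 and 37, where the median pair was expected in only 3.34 and 1.44 cells. Znrf3 took part in 5 of the 6 pairs below it in NFKO, where it was seen in 12 cells. At 10000 UMIs every cell with an Lgr5 UMI also had Olfm4, 67 of 67 in WT and 41 of 41 in NFKO, where Olfm4 was found in 81.2% and 66.0% of the cells. Lgr5 and Ascl2 met in 23 WT cells against 10.6 from their shares, and in 20 NFKO cells against 6.96. Lgr5 and Axin2 met in 52 cells against 27.1 in WT and in 21 against 12.8 in NFKO. Slc12a2 was found in every cell with Ascl2, 49 in WT and 36 in NFKO, at shares of 85.8% and 79.7% over the group. At 5000 UMIs, Olfm4 was found in 49 of 49 WT and 22 of 24 NFKO cells with Lgr5. Slc12a2 was then found in 23 of 25 and 24 of 26 cells with Ascl2. All pairs share the cells of 1 cluster, in which Olfm4 ran from 0 to 9154 CPM in WT and from 0 to 12326 in NFKO. Pairs of other genes were not counted beside them, so these counts do not show a trait particular to the members. No test of the pairs was made.

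**Figure D5:**
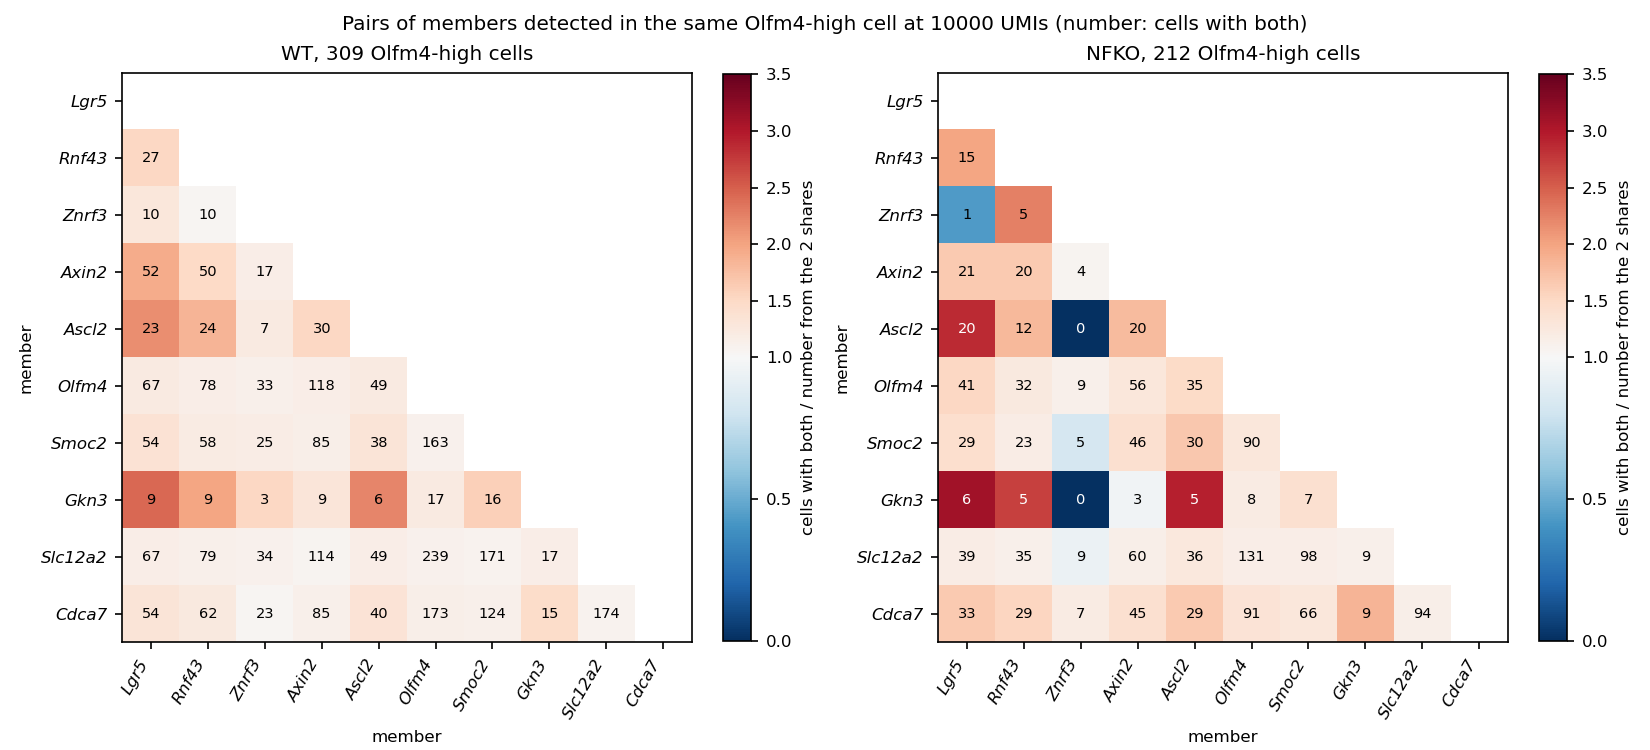
For each pair of members in Olfm4-high cells at 10000 UMIs, the number is the count of cells with both, and the colour is that count divided by the one expected from the 2 shares, white at 1, red above and blue below. All 45 WT pairs are above 1, and the 6 pairs below 1 in NFKO include 5 with Znrf3. Pairs of other genes were not counted.

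In tuft-like cells Lgr5 and Ascl2 did not meet more often than their shares gave. Among 110 NFKO cells with 10000 UMIs, 30 held Lgr5 and 48 held Ascl2, and 10 held both against 13.1 from the shares. Ascl2 and Smoc2 met in 27 cells against 19.2. Olfm4 was found in 11 of the 110 cells, 10.0% (5.10 to 17.2), and 5 of the 30 cells with Lgr5 had it. Only 21 WT tuft-like cells had this depth, and their pairs were not read.

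Members were last compared by division state within Olfm4-high cells, split by any Mki67 or Top2a UMI at 2000 UMIs per cell, which gave 168 cells with and 148 without in WT and 100 and 129 in NFKO. Gkn3 was lower in cells with these transcripts in both libraries, at 4.36 against 8.78 CPM in WT, a ratio of 0.496 (0.324 to 0.753), and at 4.57 against 8.80 in NFKO, a ratio of 0.520 (0.309 to 0.855). Olfm4 was lower as well, with ratios of 0.766 (0.746 to 0.786) and 0.926 (0.892 to 0.961). In WT only, Lgr5 was lower at 0.799 (0.665 to 0.960) and Cdca7 at 0.855 (0.780 to 0.936), while their NFKO intervals held 1. Smoc2 was higher in NFKO, at 1.18 (1.02 to 1.35), with a WT interval that held 1. For Ascl2 the ratios were 1.01 (0.788 to 1.30) and 0.946 (0.722 to 1.24), and for Axin2 0.950 (0.838 to 1.08) and 1.16 (0.979 to 1.39). The intervals of Rnf43 and Znrf3 also held 1 in both libraries. Slc12a2 went in opposite directions with both intervals off 1, at 0.870 (0.830 to 0.912) in WT and 1.23 (1.16 to 1.31) in NFKO. This split was not counted over all genes.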

How the data were processed

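The authors sequenced 10x 3′ libraries and deposited raw UMI counts per gene and barcode. The submitters' processing notes name Cell Ranger 5.0.1 and mm10, the build of the GENCODE M21 positions used here. The deposited matrices held 5051 WT and 7540 NFKO barcodes, with 90002878 and 124300388 UMIs.

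Kept barcodes had 500 or more genes, 1000 or more UMIs and a mitochondrial share of up to 25%. The automatic threshold of Scrublet (scanpy 1.11.5) marked only 2 WT cells and 0 NFKO cells, so the highest scores, 0.8% per 1000 barcodes, were removed instead, 126 and 340 cells. The cells of both libraries went into one clustering (Seurat 5.3.0, R 4.3.3) on 2000 variable genes, 30 components, 20 neighbours and resolution 0.8, without the members, Foxo1, the insulin genes, Iapp or sex genes. A cluster was named when at least 3 markers of a type were at least 2-fold higher than elsewhere and detected in 10% or more of its cells. Clusters of low depth (median UMIs under their library's divided by 3) stayed unnamed whatever their markers, namely 13, 14, with 9 of 15 enteroendocrine markers, and 21, with 7 of 7 immune markers. They are in the remaining cells but in no group, and names may differ from the study's because they were rebuilt.

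Counts were summed per group and library. Levels carry exact Poisson, shares Clopper-Pearson and ratios exact conditional binomial 95% intervals, which cover counting error only, and 3 counts set the limit for a value of 0. Each cell was thinned to 2000 UMIs for shares, with 1000, 5000 and 10000 as alternatives. With 1 library per group no p-value was computed. The calculations were tested on simulated counts. Named genes were the members, the 3 highest and 3 lowest Wnt list genes past 2-fold, and the 5 genes most like Lgr5 among those with at least 20 CPM in a group of each library. Clusters and genes named beyond this rule were chosen after their values were seen. Members, marker lists and the Wnt list were chosen with earlier results of these data known, and a pattern that those results already showed is not independent support.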

Additional observations from a re-analysis of the deposited data

Results flagged for a closer look

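Olfm4 was higher in the library labelled NFKO in tuft-like cells, with a ratio of 2.795, while it was lower past 1.5-fold in secretory progenitor-like, Paneth-like, goblet-like, enteroendocrine-like and enterocyte-like cells. The opposite directions drew attention to it. With 1 library per group the difference between cell groups was not tested, and without the 3 cells with most Olfm4 UMIs in each library the tuft-like ratio was 1.02. Olfm4 was also lower past 1.5-fold over all kept cells, and Olfm4-high cells were 10.5% of WT but 4.33% of NFKO cells. Free RNA from them cannot be told apart from a change within the groups where Olfm4 was lower.

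Rnf43 was higher in the library labelled NFKO in enterocyte-like cells, with a ratio of 1.763, and lower in dividing and secretory progenitor-like cells, at 0.636 and 0.483. This difference between cell groups was not tested either. The enterocyte-like value rests on 36 UMIs in WT and 71 in NFKO, and was 1.84 without the 3 top cells of each library. Fabp1 differed in these cells as well, at 612 CPM in WT and 5229 in NFKO.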

How the results depend on the processing

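No paired analysis was possible because each group had 1 library and the labels carry no replicate numbers. Among the summary counts, giving every cell the same weight left 1 member highest in tuft-like cells in both libraries, in place of 3, and the cause was not tested. Weighted in that way, tuft-like cells held 0.996 times the Lgr5 level of Olfm4-high cells in WT and 1.03 times in NFKO, while Ascl2 remained above, at 1.29 and 2.51. At 5000 UMIs per cell, 74.9% of WT and 67.5% of NFKO Olfm4-high cells held at least 2 members, and at 10000 UMIs, a depth chosen after seeing the data, 86.7% and 77.8%, because more UMIs per cell were counted. No ratio changed direction where its interval lay off 1. Over 11 alternatives the ratio of NFKO to WT in Olfm4-high cells stayed below 1 for the 8 members whose interval was below 1, from 0.561 to 0.739 for Olfm4 and from 0.472 to 0.915 for Lgr5. The number of members with an interval below 1 was 6 at resolution 1.2, with another random seed and with a mitochondrial limit of 10%, and 8 under the other alternatives that give one. Among these alternatives, all genes were counted in this way only for 3 subsets. The shares were 20.5% with the mitochondrial limit, 10.3% in male-typed cells and 20.2% in cells without Mki67 or Top2a. The other numbers have no share of all genes beside them. With that mitochondrial limit, tuft-like over Olfm4-high cells in WT moved from 1.93 to 3.86 for Ascl2 and from 1.23 to 2.19 for Smoc2, and the cause was not tested. The share of all genes past 1.5-fold in Olfm4-high cells was 21.9% with no minimum beyond 1 UMI in each library. The counts of Gkn3 and of tuft-like cells limit what can be read from them, and no value has a replicate.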
